A study of Homo sapiens with 9 samples.

Results

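The genes described here are the transcriptional coactivators YAP1 and WWTR1 (the protein TAZ), their DNA-binding partner TEAD1, and 7 genes that YAP and TEAD are known to control or that control YAP in turn: CYR61, CTGF, ANKRD1, AMOTL2, AJUBA, LATS2 and AXL. They were picked by gene name, 10 of the 58676 genes in the deposited count table, and all 10 passed the filter on low counts. All RNA came from HaCaT, a spontaneously immortalised line of human keratinocytes, so every library holds a single cell line in culture. The cells received 250 nM CDDO-Me (bardoxolone methyl, an electrophilic triterpenoid that activates the antioxidant transcription factor NRF2), 10 µM PRL-295 (known here by its code name) or 1% DMSO as the control, in each case for 14 h and with 3 libraries a group. The study's title speaks of NRF2 activators that are not electrophiles and of wound healing. The labels list DMSO for the control cultures only, and do not say whether the libraries of a group were separate cultures, so p-values measure the spread between these samples.

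YAP and TAZ carry mechanical and cell-contact signals into the nucleus, where they bind TEAD factors and switch on genes for growth, adhesion and matrix. The Hippo kinases, ending in LATS1 and LATS2, phosphorylate YAP and TAZ and keep them in the cytoplasm. In skin the pathway is known for its part in the proliferation of basal keratinocytes and in wound repair. Several targets feed back on it: AMOTL2 and LATS2 restrain YAP, while AJUBA binds and holds back LATS kinases. Much of this control acts on the YAP and TAZ proteins and their location, which RNA levels do not measure.

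After CDDO-Me, 5 of the 10 genes rose relative to DMSO in the edgeR quasi-likelihood test (adjusted p under 0.05): ANKRD1, CTGF, AJUBA, CYR61 and YAP1. The rises ran between 1.35-fold for YAP1 and 2.58-fold for ANKRD1 and CTGF, and 0 fell. Of all genes tested, 4.65% rose and 4.57% fell. The YAP1 and CYR61 calls each ended in 6 of the 9 fits that left out 1 library. After PRL-295 no member passed the threshold against DMSO, beside 0.684% of genes tested that did in either direction. Set directly against CDDO-Me, PRL-295 left ANKRD1 and YAP1 lower, beside 0.684% of genes tested that were lower. The direct YAP1 call ended in 8 of the 9 fits that left out 1 library, and that of ANKRD1 in 2. ANKRD1 was the member whose rise after CDDO-Me held in each of 10 other ways of processing the counts and in each of 9 fits that left out 1 library.

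Each library held 23383800 to 32942156 counted reads, and a floor of 3 counts corresponds to 0.0911 to 0.128 counts-per-million (CPM). The library CDDO-Me 1 stood apart: its genes deviated from the mean of its group with an SD of 0.881 on the log2 scale over 13123 genes, against 0.226 to 0.52 in the other 8 libraries, and it had counts for 14543 genes, against 17821 to 23271. GC content also tracked library differences, with a correlation across genes between GC content and a library's deviation from the mean of 0.317 to 0.367 in the DMSO libraries, but 0.00516, -0.657 and -0.228 in the CDDO-Me libraries and -0.48, 0.318 and -0.153 in the PRL-295 libraries. The NRF2 target NQO1 averaged 739 CPM after CDDO-Me and 1090 CPM after PRL-295, against 371 CPM with DMSO, and rose after CDDO-Me (adjusted p = 0.00771) and after PRL-295 (adjusted p = 0.00219). A further NRF2 target, HMOX1, averaged 362 CPM after CDDO-Me, 42.15 CPM after PRL-295 and 11.1 CPM with DMSO. It rose after CDDO-Me (edgeR adjusted p = 1.78e-07) and after PRL-295 (0.000191). Directly, PRL-295 differed from CDDO-Me by a log2 fold change of -3.10 for HMOX1 (edgeR adjusted p = 1.16e-05) and 0.56 for NQO1 (0.137). All 8 keratinocyte markers were expressed, with a summed level of 17976 to 20805 CPM after CDDO-Me, 12024 to 12888 CPM after PRL-295 and 14344 to 15502 CPM with DMSO. Of markers of other cell types, the fibroblast genes COL3A1, LUM and DCN, the endothelial gene PECAM1, the melanocyte gene TYR and the immune gene AIF1 were at 0 in all 9 libraries. The 7 fibroblast markers together reached 9.99 to 13.1 CPM after CDDO-Me, 7.39 to 7.80 CPM after PRL-295 and 8.57 to 11.4 CPM with DMSO, nearly all of it COL1A1. The 5 endothelial markers summed to 0.125 to 0.985 CPM after CDDO-Me, 0.518 to 1.68 CPM after PRL-295 and 1.48 to 2.31 CPM with DMSO. The 5 melanocyte markers summed to 3.47 to 3.97 CPM after CDDO-Me, 1.64 to 2.22 CPM after PRL-295 and 2.27 to 4.30 CPM with DMSO. The 5 immune markers summed to 0 to 0.381 CPM after CDDO-Me, 0.889 to 1.98 CPM after PRL-295 and 0.768 to 1.62 CPM with DMSO. The 3 smooth muscle markers summed to 1.72 to 5.17 CPM after CDDO-Me, 2.93 to 3.63 CPM after PRL-295 and 3.12 to 4.03 CPM with DMSO. After CDDO-Me 5 of the 8 keratinocyte markers rose against DMSO in edgeR (KRT5, KRT17, TP63, ITGB4 and SFN), beside 4.65% of genes tested. CDH1 was lower in all CDDO-Me libraries (-0.22, adjusted p = 0.182). After PRL-295 0 of the 8 passed against DMSO in edgeR. There KRT5 and KRT14 were lower and SFN higher at an unadjusted p under 0.05, beside 5.31% and 7.58% of genes tested. Directly 4, KRT5, KRT14, KRT17 and ITGB4, were lower than after CDDO-Me in edgeR, beside 0.684% of genes tested. The part of these markers in the results was not tested.

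TEAD factors are known to act through the letters GGAATG in the promoters and enhancers of their targets. These letters were searched on both strands in a window of 250 bases before to 50 after the transcription start (RefSeq, GRCh38.p14). Windows were matched for 8 of the 10 genes, not for CYR61 or TEAD1. The letters stood in 4 of the 8, CTGF, ANKRD1, LATS2 and YAP1, against 14% of 35116 promoters of the same length. The windows of 3 of them show how often and where the letters fall: CTGF (chr6:131951323-131951622, minus strand), ANKRD1 (chr10:90921038-90921337, minus strand) and LATS2 (chr13:21061537-21061836, minus strand), each written 5′ to 3′ on the strand of its gene, with every GGAATG in capitals.
CTGF: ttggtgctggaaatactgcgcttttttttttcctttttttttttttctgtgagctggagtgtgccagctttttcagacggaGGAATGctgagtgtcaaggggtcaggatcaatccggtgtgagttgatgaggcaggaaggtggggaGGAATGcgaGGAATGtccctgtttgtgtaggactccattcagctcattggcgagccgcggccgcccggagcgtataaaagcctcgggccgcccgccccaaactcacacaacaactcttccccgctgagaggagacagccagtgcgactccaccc
ANKRD1: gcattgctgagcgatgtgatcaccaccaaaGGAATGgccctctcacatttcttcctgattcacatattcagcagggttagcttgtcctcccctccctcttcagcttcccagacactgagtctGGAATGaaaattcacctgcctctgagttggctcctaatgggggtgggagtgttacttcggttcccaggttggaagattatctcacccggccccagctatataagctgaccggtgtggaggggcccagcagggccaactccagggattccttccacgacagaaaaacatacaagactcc
LATS2: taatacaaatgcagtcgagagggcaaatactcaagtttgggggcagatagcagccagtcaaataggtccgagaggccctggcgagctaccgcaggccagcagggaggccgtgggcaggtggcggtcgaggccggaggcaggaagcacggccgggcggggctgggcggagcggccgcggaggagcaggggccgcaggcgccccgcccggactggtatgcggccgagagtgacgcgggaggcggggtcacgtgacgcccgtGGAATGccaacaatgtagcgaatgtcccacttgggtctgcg
CTGF carried 3 matches, whose first bases lie at -169, -104 and -95 from the transcription start. ANKRD1 carried 2, at -220 and -128, and its window starts from a RefSeq start 189 bases from the gene's start in the deposited table. LATS2 carried 1, at 10 bases after the start, and YAP1 carried 1 at -162. The letters were not found in the windows of AMOTL2, AJUBA, AXL and WWTR1, and the RefSeq start used for WWTR1 lies 33441 bases from its deposited gene start. The letters TGANTCA, a loose form of the AP-1 motif that admits any base at N, occurred in 1 window, against 7.71% of promoters. That match, in ANKRD1 at -195, reads tgattca. The NRF2 element TGACNNNGC occurred in 1, that of LATS2 at -12, against 13.3%. None of these motifs overlapped another, and a match is a description of the letters, not a site of binding.

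ANKRD1 (ENSG00000148677, chr10:90912096-90921276, minus strand in hg38) encodes a cardiac ankyrin repeat protein and is among the most used readouts of YAP activity. It stood at 68.5, 89.8 and 87.6 CPM in the CDDO-Me libraries, 41.0, 32.1 and 38.4 CPM in the PRL-295 libraries, and 25.2, 35.5 and 34.4 CPM in the DMSO libraries. Every CDDO-Me library lay above all 6 others, while the PRL-295 and DMSO ranges overlapped. The rise after CDDO-Me was 2.58-fold, with a log2 fold change of 1.37 (95% interval 0.98 to 1.76, adjusted p = 0.00128). After PRL-295 the log2 fold change was 0.23 (-0.16 to 0.61, adjusted p = 0.659), and its sign turned with correction for GC content and gene length (-0.11).

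CTGF (ENSG00000118523, chr6:131948176-131951373, minus strand), also called CCN2, is a secreted matricellular protein and the target most often measured for YAP. It stood at 12.7, 14.9 and 12.1 CPM in the CDDO-Me libraries, 10.4, 9.26 and 8.11 CPM in the PRL-295 libraries, and 3.36, 7.71 and 4.28 CPM in the DMSO libraries. The 3 groups did not overlap, and CTGF was the member with the lowest mean level per length in all of them. It rose 2.58-fold after CDDO-Me, a log2 fold change of 1.37 (0.71 to 2.02, adjusted p = 0.0189). After PRL-295 the log2 fold change of 0.85 (0.20 to 1.5) had an unadjusted p of 0.0156 in the same edgeR fit but an adjusted p of 0.252. The call after CDDO-Me ended without CDDO-Me 2 (adjusted p = 0.0615), DMSO 1 (0.0755) or DMSO 3 (0.0793), with log2 fold changes of 1.14 to 1.26.

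CYR61 (ENSG00000142871, chr1:85580761-85583962, plus strand), also called CCN1, is the matricellular relative of CTGF and another direct target. It stood at 52.9, 55.2 and 55.4 CPM in the CDDO-Me libraries, 43.5, 47.9 and 51.2 CPM in the PRL-295 libraries, and 32.3, 36.4 and 44.2 CPM in the DMSO libraries. The CDDO-Me libraries lay above the others, whereas PRL-295 and DMSO overlapped at one library. Relative to DMSO, CYR61 rose 1.45-fold after CDDO-Me (log2 fold change 0.53, 0.21 to 0.85, adjusted p = 0.0451), and its value after PRL-295 was 0.34 (0.02 to 0.66, unadjusted p = 0.041 from the edgeR fit, adjusted p = 0.364). The call after CDDO-Me ended in the fit of the 6 libraries compared (0.0734) and with a block for replicate number (0.0597). It also ended without CDDO-Me 2 (0.132), CDDO-Me 3 (0.0995), PRL-295 1 (0.0623), PRL-295 3 (0.0876), DMSO 1 (0.158) or DMSO 2 (0.176). With the correction for GC content and gene length its log2 fold change was 0.81 (adjusted p = 0.00423).

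AXL (ENSG00000167601, chr19:41219203-41261766, plus strand) is a receptor tyrosine kinase whose ligand is GAS6 and which YAP induces in several cancers. It stood at 219.8, 123.1 and 134.5 CPM in the CDDO-Me libraries, 97.5, 85.7 and 101.3 CPM in the PRL-295 libraries, and 130.4, 117 and 83.7 CPM in the DMSO libraries. CDDO-Me 1 was far above the rest, and the CDDO-Me and DMSO ranges overlapped. The log2 fold change after CDDO-Me was 0.53 (0.04 to 1.02, adjusted p = 0.159). Without CDDO-Me 1 it was 0.21 (adjusted p = 0.413), whereas with the GC and length correction it was 0.81 and passed the threshold (0.0435).

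**Figure D1:**
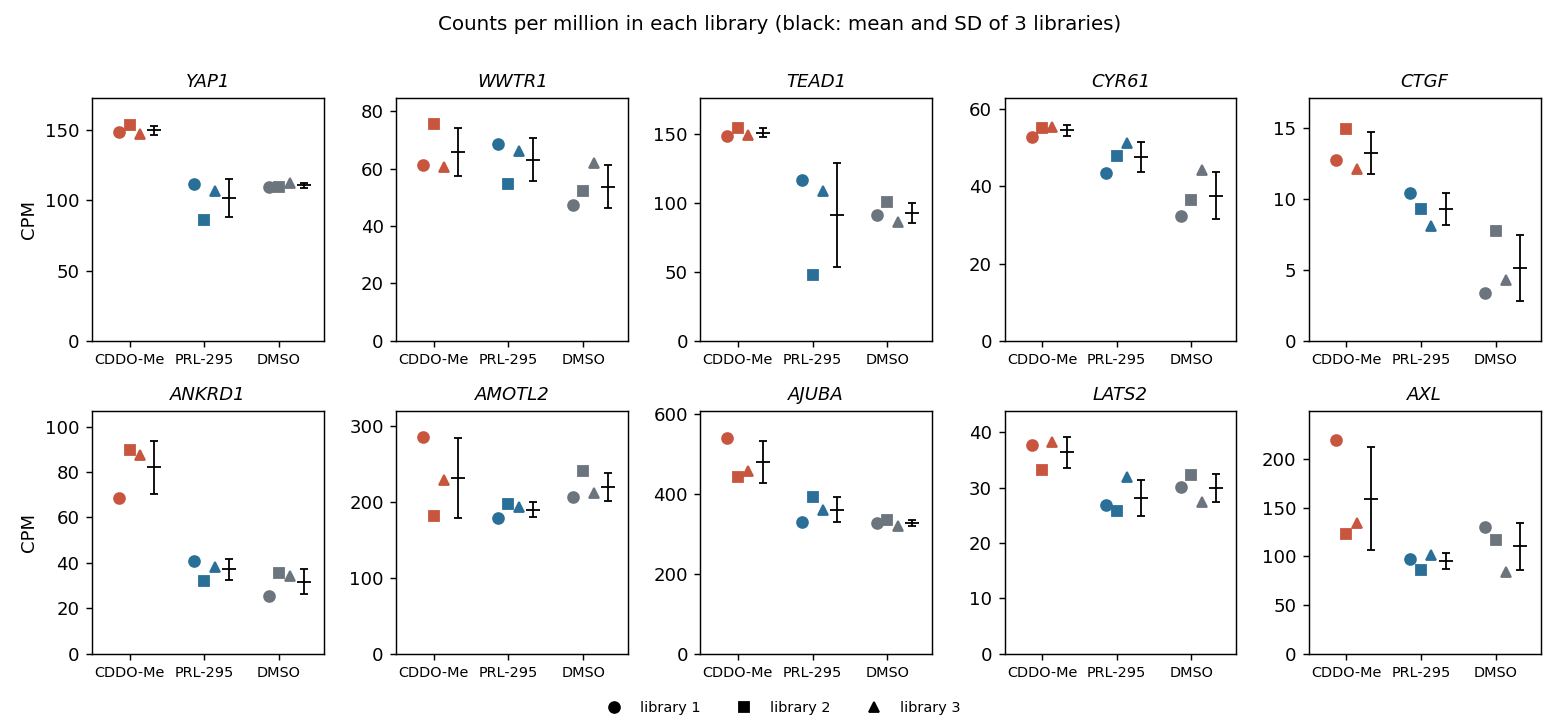
CPM (y axis, from 0) of each of the 10 genes in the CDDO-Me, PRL-295 and DMSO libraries (x axis); symbols mark libraries 1 to 3, black bars the mean and SD of 3 libraries. In 7 of the 10 panels the CDDO-Me points all lie above the DMSO points, and in the TEAD1 panel PRL-295 2 lies far below its group.

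Of the coactivators, YAP1 (ENSG00000137693, chr11:102110461-102233423, plus strand) rose after CDDO-Me and WWTR1 did not pass the test. YAP1 stood at 148.8, 153.8 and 147.3 CPM in the CDDO-Me libraries, 111.7, 86.2 and 106.8 CPM in the PRL-295 libraries, and 109.5, 109.9 and 112.7 CPM in the DMSO libraries. The CDDO-Me libraries stood close together and above all others. The rise was 1.35-fold (log2 fold change 0.44, 0.19 to 0.69, adjusted p = 0.0393). The call ended with the GC and length correction (log2 fold change 0.31, adjusted p = 0.17), with a block for replicate number (0.0729) and with both (0.189). It also ended without CDDO-Me 2 (0.104), CDDO-Me 3 (0.0807), PRL-295 3 (0.074), DMSO 1 (0.124), DMSO 2 (0.143) or DMSO 3 (0.1), where the log2 fold change stayed within 0.40 to 0.45.

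WWTR1 (ENSG00000018408, chr3:149517235-149736714, minus strand) stood at 61.1, 75.4 and 60.7 CPM in the CDDO-Me libraries, 68.4, 54.7 and 66.3 CPM in the PRL-295 libraries, and 47.2, 52.1 and 62.0 CPM in the DMSO libraries. The 3 groups overlapped. Its log2 fold change was 0.29 after CDDO-Me (-0.04 to 0.63, adjusted p = 0.257) and 0.23 after PRL-295 (-0.10 to 0.57, adjusted p = 0.583). The antisense gene WWTR1-AS1 had at most 41 counts in a library, 2.79% of those of WWTR1, and without a stated strand setting the reads of both cannot be told apart. Of the summed FPKM (the deposited level scaled to gene length and library total) of both coactivators, YAP1 held 75.4% ± 1.91 after CDDO-Me, 68.2% ± 0.383 after PRL-295 and 73.4% ± 2.39 with DMSO (SD, n = 3 each).

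TEAD1 (ENSG00000187079, chr11:12674591-12944483, plus strand), a DNA-binding partner of YAP, stood at 148.9, 154.7 and 149 CPM in the CDDO-Me libraries, 116.4, 47.6 and 108.9 CPM in the PRL-295 libraries, and 91.7, 100.4 and 86.2 CPM in the DMSO libraries. All CDDO-Me libraries lay above all others, but PRL-295 2 lay far below its group, and the fit shares 1 estimate of the spread across the 3 groups. The log2 fold change of 0.70 after CDDO-Me (0.14 to 1.27) had an adjusted p of 0.111. It passed without PRL-295 2 (0.0033), in the fit of the 6 libraries compared (0.0113) and with DESeq2 (0.0378), and with the GC and length correction it was 0.33 (0.357). After PRL-295 the log2 fold change was -0.03 (-0.59 to 0.54), and 0.25 without PRL-295 2.

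TEAD4 was the most abundant TEAD factor per length in these cells, at 46.5 FPKM ± 10.2 after CDDO-Me, 50.7 ± 3.56 after PRL-295 and 62.1 ± 7.69 with DMSO. TEAD1 made up 17.5% ± 2.76 of the family's FPKM after CDDO-Me, 10.8% ± 4.65 after PRL-295 and 9.53% ± 0.617 with DMSO. TEAD4 made up 54.6% ± 4.81 of it after CDDO-Me, 63.2% ± 3.88 after PRL-295 and 65.7% ± 2.99 with DMSO (SD, n = 3 each). The ranges of TEAD1's share in CDDO-Me and DMSO libraries did not overlap (14.9% to 20.4% against 8.82% to 9.89%). These shares carry no correction for GC content, which is 42.79% for TEAD1 and 62.72% for TEAD4. The part of GC content in them was not tested. Of TEAD2, TEAD3, TEAD4 and the 4 VGLL cofactors, which compete with YAP for TEAD or modulate it, 0 of 7 passed the threshold in any of the 3 comparisons with edgeR, DESeq2 or limma. Of all genes tested, edgeR called 9.22% after CDDO-Me, 0.684% after PRL-295 and 1.59% in the direct comparison. At an unadjusted p under 0.05 in edgeR 1 of the 7 was lower, TEAD4 after CDDO-Me, beside 12.6% of genes tested. For TEAD4 the log2 fold change after CDDO-Me was -0.42 (-0.78 to -0.06, adjusted p = 0.133), and -0.62 without CDDO-Me 1 (0.0159). After PRL-295 it was -0.26 against DMSO (adjusted p = 0.555) and 0.15 against CDDO-Me (0.684).

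The regulators of the pathway among the 10 genes were AJUBA, AMOTL2 and LATS2, and of these AJUBA alone passed the test after CDDO-Me. AJUBA (ENSG00000129474, chr14:22971174-22982642, minus strand), a LIM-domain scaffold of cell junctions, stood at 541.9, 442.4 and 458.6 CPM in the CDDO-Me libraries, 331, 392.4 and 360 CPM in the PRL-295 libraries, and 327.7, 336.1 and 320 CPM in the DMSO libraries. The CDDO-Me libraries lay above all others. It rose 1.47-fold (log2 fold change 0.55, 0.31 to 0.79, adjusted p = 0.0122), and the call ended without DMSO 1 (0.0563), DMSO 2 (0.0752) or DMSO 3 (0.0503). The log2 fold change after PRL-295 was 0.14 (-0.10 to 0.38, adjusted p = 0.667).

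LATS2 (ENSG00000150457, chr13:20973032-21061547, minus strand), a Hippo kinase that is itself a YAP target, stood at 37.6, 33.2 and 38.2 CPM in the CDDO-Me libraries, 26.8, 25.7 and 31.9 CPM in the PRL-295 libraries, and 30.1, 32.3 and 27.3 CPM in the DMSO libraries. The CDDO-Me libraries lay just above all others, and the log2 fold change of 0.28 (-0.05 to 0.61, adjusted p = 0.268) was 0.46 with the GC and length correction (0.0886). AMOTL2 (ENSG00000114019, chr3:134355874-134375479, minus strand), an angiomotin that holds YAP at junctions, stood at 285.3, 180.9 and 229 CPM in the CDDO-Me libraries, 178.4, 197.1 and 193.4 CPM in the PRL-295 libraries, and 206.4, 241.1 and 212.3 CPM in the DMSO libraries. The CDDO-Me libraries overlapped both other groups, with a log2 fold change of 0.08 (-0.26 to 0.41, adjusted p = 0.802) that was -0.11 without CDDO-Me 1 and 0.34 with the GC and length correction. All PRL-295 libraries lay below all DMSO libraries for AMOTL2, with a log2 fold change of -0.21 (-0.55 to 0.12, adjusted p = 0.616) that was 0.01 with the GC and length correction.

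Counted over the 10 genes, 5 rose and 0 fell after CDDO-Me in edgeR, beside 4.65% of the 16239 genes tested that rose. At an unadjusted p under 0.05, 7 were higher and 0 lower, beside 13.4% and 12.6% of genes tested, and 0 fell in DESeq2 or limma. In 7 of 10 all CDDO-Me libraries lay above all DMSO libraries, beside 15.5% of genes tested. The median log2 fold change of the 10 was 0.53, beside 0.01 over all genes tested. The 10 were chosen with earlier results of these data known, so these counts beside all genes are a description and not a test. Without CDDO-Me 1 the count was again 5, and it was between 1 (without DMSO 1) and 6 (without PRL-295 2) when other libraries were left out. In RNA from whole cultures, more cells expressing a gene and more of its RNA per cell cannot be told apart.

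After PRL-295, 0 of the 10 passed against DMSO in edgeR, DESeq2 or limma, beside 0.684% of genes tested that edgeR called in either direction. At an unadjusted p under 0.05 in edgeR 2 of 10 were higher, CTGF and CYR61, and 0 lower, beside 7.58% and 5.31% of genes tested. In either direction the share of genes tested was 12.9%. CTGF was the 1 member with all PRL-295 libraries above all DMSO libraries, beside 13.5% of genes tested, and AMOTL2 the 1 with all below, beside 13.7%. The median log2 fold change was 0.06, beside -0.01 over all genes. Among the 5 members called after CDDO-Me, the intervals after PRL-295 for CTGF (0.20 to 1.5) and CYR61 (0.02 to 0.66) included the values fitted after CDDO-Me (1.37 and 0.53). Those for ANKRD1 (-0.16 to 0.61), AJUBA (-0.10 to 0.38) and YAP1 (-0.38 to 0.13) stayed below the values fitted after CDDO-Me (1.37, 0.55 and 0.44). A missing call does not show that a gene was level.

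**Figure D2:**
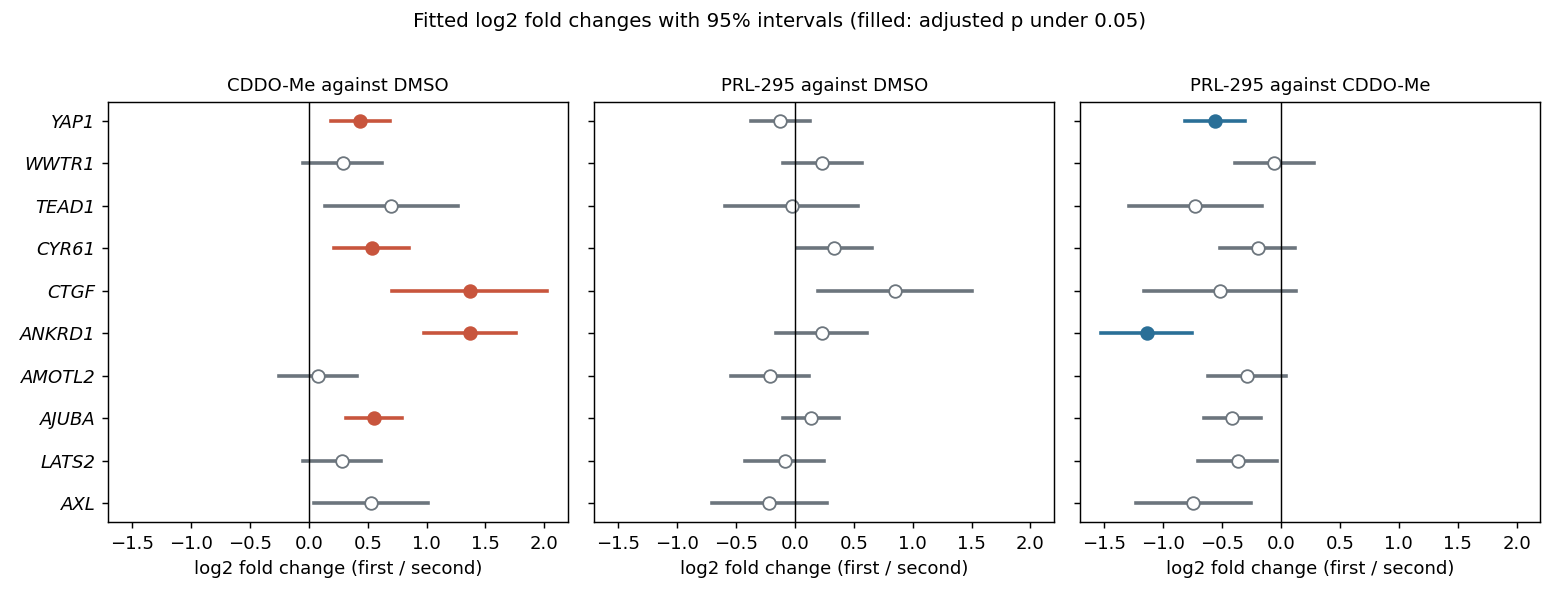
Fitted log2 fold change (x axis) of each of the 10 genes (rows) with its 95% interval, for CDDO-Me against DMSO, PRL-295 against DMSO and PRL-295 against CDDO-Me; filled points have an adjusted p under 0.05. All 10 points lie right of 0 in the CDDO-Me panel, 5 of 10 in the PRL-295 panel, and 0 of 10 in the panel of PRL-295 against CDDO-Me.

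The direct comparison asks whether the RNA differed between the compounds, at the doses used, which were not matched. It shares its libraries with the comparisons above, so its signs are no separate support for them. ANKRD1 averaged 37.2 ± 4.62 CPM after PRL-295 and 82.0 ± 11.7 CPM after CDDO-Me (SD, n = 3 each), a log2 fold change of -1.14 (-1.53 to -0.75, adjusted p = 0.00974 from edgeR). The call ended without CDDO-Me 3 (0.0513) or PRL-295 3 (0.0729). YAP1 averaged 101.5 ± 13.5 CPM after PRL-295 and 150 ± 3.40 CPM after CDDO-Me (SD, n = 3 each), a log2 fold change of -0.56 (-0.82 to -0.31, adjusted p = 0.0367 from edgeR). That call ended in the fit of the 6 libraries compared (0.161) and with a block for replicate number (0.076). It also ended in all 8 fits that left out a library other than CDDO-Me 1 (0.0655 to 0.152).

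The other 8 members did not pass in edgeR in the direct comparison, while DESeq2 called 3 of them lower as well: TEAD1 (0.0477), AJUBA (0.0223) and AXL (0.023). Of the 16239 genes tested, DESeq2 called 467 lower and edgeR 111. In edgeR, 2 of 10 lower calls stand beside 0.684% of genes tested that were lower. In 8 of 10 all PRL-295 libraries lay below all CDDO-Me libraries, beside 10.2% of genes tested, WWTR1 and AMOTL2 being the exceptions. AXL (-0.75, -1.24 to -0.26, adjusted p = 0.121) and TEAD1 (-0.73, -1.29 to -0.16, adjusted p = 0.176) had the largest differences of these 8. For AJUBA the log2 fold change was -0.41 (-0.65 to -0.17, adjusted p = 0.0892), and it passed with the GC and length correction (0.0348). For CTGF it was -0.52 (-1.16 to 0.13), for LATS2 -0.37 (-0.70 to -0.04), for AMOTL2 -0.29 (-0.62 to 0.04), for CYR61 -0.20 (-0.52 to 0.12) and for WWTR1 -0.06 (-0.39 to 0.28), with adjusted p-values of 0.246 to 0.89. The median of the 10 was -0.47, beside -0.01 over all genes.

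Compared per gene length, AJUBA was the most abundant of the 10 genes in every group, at 81.0 FPKM ± 8.55 after CDDO-Me, 59.5 ± 4.08 after PRL-295 and 55.1 ± 0.994 with DMSO (SD, n = 3 each). CTGF had the lowest mean, at 5.70 ± 0.656 FPKM after CDDO-Me, 3.90 ± 0.515 after PRL-295 and 2.19 ± 0.945 with DMSO. After CDDO-Me its libraries overlapped with those of LATS2 (6.56 ± 0.484). ANKRD1 stood second after CDDO-Me at 41.8 FPKM ± 6.15, though its libraries overlapped with those of AMOTL2 (39.0 ± 8.60). With DMSO, AMOTL2 (36.9 ± 2.53) came second, and AXL (21.5 ± 4.76), YAP1 (17.7 ± 0.400), ANKRD1 (16.1 ± 2.68) and CYR61 (15.4 ± 2.46) followed with overlapping libraries between neighbours. TEAD1 (8.97 ± 0.590), WWTR1 (6.42 ± 0.895) and LATS2 (5.38 ± 0.401) came next with DMSO, the last pair overlapping. After PRL-295 the order was AJUBA, AMOTL2 (31.2 ± 1.19), CYR61 (19.1 ± 1.44), ANKRD1 (18.5 ± 2.59), AXL (18.2 ± 1.79), YAP1 (15.9 ± 2.36), TEAD1 (8.68 ± 3.69), WWTR1 (7.41 ± 0.977), LATS2 (4.98 ± 0.601) and CTGF, with overlap between neighbours from CYR61 to YAP1 and between TEAD1 and WWTR1.

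Within its family of secreted CCN proteins, CTGF held 17.2% ± 1.51 of the summed FPKM after CDDO-Me, 15.3% ± 2.70 after PRL-295 and 10.3% ± 4.61 with DMSO, all SD with n = 3. CYR61 held 67.5% ± 2.59 after CDDO-Me, 74.5% ± 2.16 after PRL-295 and 71.7% ± 2.79 with DMSO. Of the other 4 genes of the family, NOV could be tested, and WISP1, WISP2 and WISP3 were too low. NOV averaged 13.3 CPM after CDDO-Me and 10.2 CPM with DMSO (log2 fold change 0.39, adjusted p = 0.345), and 7.06 CPM after PRL-295 (-0.52 against DMSO, adjusted p = 0.402). Directly, NOV after PRL-295 differed from CDDO-Me by -0.91 (adjusted p = 0.0963), and passed with the GC and length correction (0.0107), with DESeq2 (0.0178) and without CDDO-Me 1 (0.0325). Among the TAM receptors AXL held 78.3% ± 2.44 of the FPKM after CDDO-Me, 71.6% ± 2.49 after PRL-295 and 72.7% ± 2.75 with DMSO. Of TYRO3, MERTK and GAS6, the 3 tested genes of that list of 4, 0 passed in any comparison with edgeR, DESeq2 or limma, and 0 had an unadjusted p under 0.05 in edgeR. Of all genes tested, edgeR called 9.22% after CDDO-Me, 0.684% after PRL-295 and 1.59% in the direct comparison. The shares at an unadjusted p under 0.05 were 26%, 12.9% and 17.2%. GAS6 had log2 fold changes of 0.04 after CDDO-Me (-0.18 to 0.26) and 0.00 after PRL-295 (-0.22 to 0.22), and with the GC and length correction the first was 0.33 and passed (0.044).

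Among the relatives of AMOTL2, AMOT fell after both compounds and AMOTL1 rose after CDDO-Me. AMOT, the founding angiomotin, averaged 10.5 CPM after CDDO-Me and 23.3 CPM with DMSO (log2 fold change -1.16, -1.58 to -0.73, adjusted p = 0.00557). After PRL-295 it averaged 10.8 CPM (-1.11 against the same DMSO libraries, -1.53 to -0.69, adjusted p = 0.0302). It was the 1 of 6 angiomotin and Ajuba relatives that edgeR called after PRL-295, beside 0.684% of all genes tested. The call after PRL-295 ended in 6 of the 9 fits that left out a library, those without CDDO-Me 3, PRL-295 1, PRL-295 3, DMSO 1, DMSO 2 or DMSO 3 (0.0644 to 0.2). It also ended in limma on log2(FPKM + 1) (0.0612) and with a block for replicate number (0.06). AMOTL1 averaged 331.5 CPM after CDDO-Me and 203.9 CPM with DMSO (log2 fold change 0.70, 0.43 to 0.97, adjusted p = 0.00771). In edgeR the other 4 of the 6 angiomotin and Ajuba relatives did not pass after CDDO-Me, beside 4.65% of all genes tested that rose and 4.57% that fell, and DESeq2 called 1 of these 4, PTPN14, named after its value was seen (0.59 in edgeR, adjusted p = 0.0516). Directly, 0 of 6 passed between PRL-295 and CDDO-Me in edgeR, where 2 were lower at an unadjusted p under 0.05, beside 8.01% of all genes. In the same comparison 2 passed in DESeq2 and 1 in limma, beside 6.37% and 1.65% of all genes, AMOTL1 among them in both tools. ZYX, the most abundant of the 6 per length over the 9 libraries, differed by -0.02 (-0.27 to 0.22). AMOTL2 held 52.7% ± 2.98 of the angiomotin FPKM after CDDO-Me, 57.1% ± 1.09 after PRL-295 and 61.5% ± 2.74 with DMSO, as mean and SD of 3 libraries. AMOTL1 held 45.6% ± 2.59 after CDDO-Me, 40.6% ± 1.56 after PRL-295 and 33.9% ± 2.75 with DMSO. These shares too carry no correction for GC content, which is 49.17% for AMOTL1 and 59.64% for AMOTL2.

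**Figure D3:**
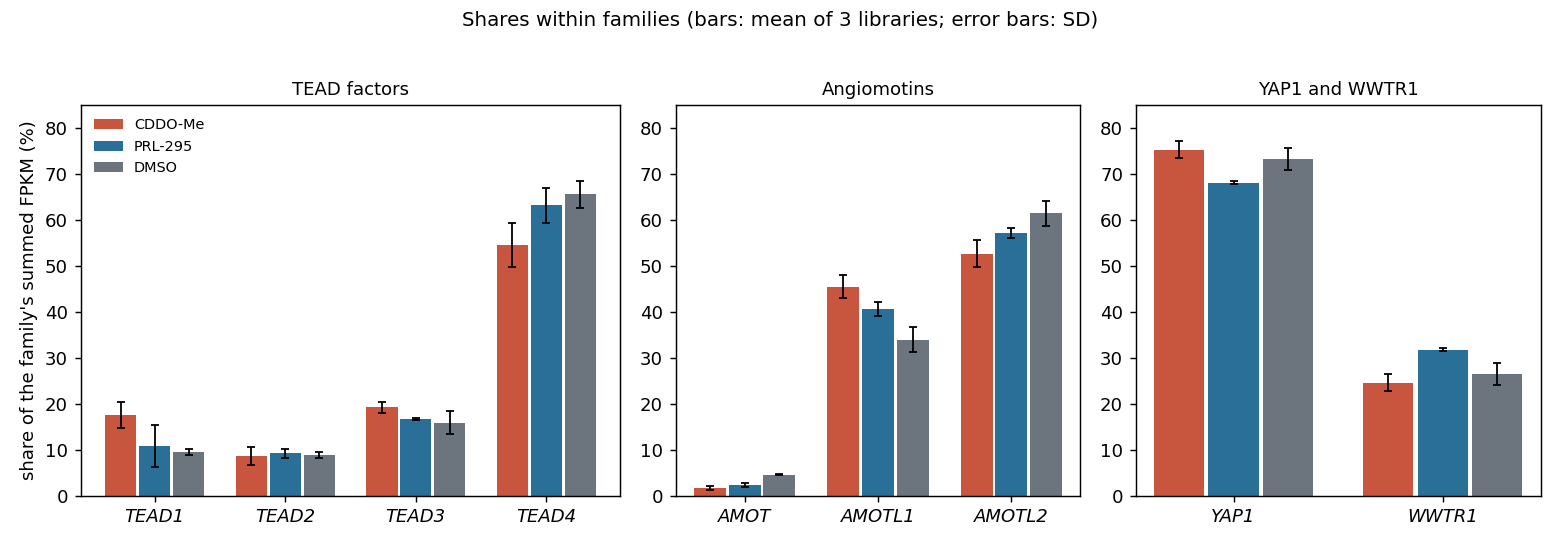
Share of a family's summed FPKM (y axis, %) held by each gene (x axis) in CDDO-Me, PRL-295 and DMSO libraries, for TEAD factors, angiomotins and YAP1 with WWTR1; bars are means and error bars SDs of 3 libraries. The TEAD1 bar stands at 17.5% after CDDO-Me and 9.53% with DMSO, and the AMOTL1 bar at 45.6% and 33.9%. The shares are not corrected for GC content.

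Of other YAP and TAZ targets, 6 of 23 tested genes rose after CDDO-Me and 0 fell in edgeR, beside 4.65% of all genes tested that rose. At an unadjusted p under 0.05, 9 were higher and 2 lower, beside 13.4% and 12.6% of all genes. DESeq2 called 8 higher and 2 lower, and limma 6 higher and 0 lower. Of all 16239 genes, DESeq2 called 1371 higher and 1245 lower, and limma 560 and 891. The 23 had a median log2 fold change of 0.36 in edgeR (RBMS3, the 24th, was too low to test). NT5E, the ectonucleotidase CD73, averaged 209.7 CPM after CDDO-Me and 87.8 CPM with DMSO (1.26, 0.91 to 1.61, adjusted p = 0.00115). THBS1, the matrix protein thrombospondin, averaged 3017 CPM after CDDO-Me and 1382 CPM with DMSO (1.13, 0.74 to 1.51, adjusted p = 0.00375). F3, the coagulation tissue factor, averaged 444.6 CPM after CDDO-Me and 226.6 CPM with DMSO (0.97, 0.67 to 1.28, adjusted p = 0.0023). These 3 calls held in all alternatives and with each library left out. CRIM1 (0.67) and ETV5 (0.71) also rose, ETV5 being named after its value was seen. The ETV5 call ended without DMSO 1, DMSO 2 or DMSO 3 (0.0669 to 0.0905).

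After PRL-295 0 of these 23 targets passed against DMSO in edgeR or limma and 2 in DESeq2, beside 3.74% of all genes in DESeq2. At an unadjusted p under 0.05 in edgeR 3 were higher, beside 7.58% of all genes. The median of the 23 was 0.07, and THBS1, whose mean FPKM over the 9 libraries was the highest of the list, was at 1242 CPM (-0.15, adjusted p = 0.804). NT5E passed against DMSO after PRL-295 in the fit of the 6 libraries compared (0.58, adjusted p = 0.0255), with DESeq2 (0.0358) and without CDDO-Me 1 (0.0397). Directly, 3 of 23 were lower after PRL-295 than after CDDO-Me in edgeR, beside 0.684% of all genes tested. They were THBS1 (-1.28, -1.67 to -0.89, adjusted p = 0.00589), F3 (-0.68, adjusted p = 0.0356) and CRIM1 (-0.66, adjusted p = 0.0271). At an unadjusted p under 0.05 in edgeR, 2 of the 23 were higher and 7 lower, beside 9.21% and 8.01% of all genes. DESeq2 called 1 higher and 5 lower, beside 568 and 467 of all 16239 genes. NT5E was at -0.70 (adjusted p = 0.0531) and passed with the GC and length correction (0.003), with DESeq2 (0.002) and without CDDO-Me 1 (0.00953). The F3 call ended in all 8 fits that left out a library other than CDDO-Me 1 (0.0505 to 0.161) and the CRIM1 call in 6 of 9, those without CDDO-Me 3, PRL-295 1, PRL-295 2, PRL-295 3, DMSO 1 or DMSO 2 (0.0571 to 0.0918). Both ended in the fit of the 6 libraries compared (0.136 for F3, 0.124 for CRIM1) and with a block for replicate number (0.0854 and 0.0583).

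Upstream of YAP, 2 of 19 tested genes of the Hippo kinase core and its regulators rose after CDDO-Me and 0 fell in edgeR, beside 4.65% of all genes tested that rose. At an unadjusted p under 0.05, 8 were higher and 1 lower, beside 13.4% and 12.6% of all genes (FAT4, the other of the list of 20, was too low to test). DESeq2 called 6 higher, beside 1371 of all 16239 genes, and limma 1, beside 560. Both tools called 0 of the list lower. FAT1, an atypical cadherin that feeds into the pathway, averaged 314.1 CPM after CDDO-Me and 152.4 CPM with DMSO (1.04, 0.73 to 1.36, adjusted p = 0.002). STK3, the kinase MST2 that activates LATS kinases, averaged 35.1 CPM after CDDO-Me and 17.2 CPM with DMSO (1.03, 0.48 to 1.57, adjusted p = 0.0294). With the GC and length correction STK3 was at 0.32 (0.399), and its call ended in 6 of the 9 fits that left out a library, those without CDDO-Me 2, CDDO-Me 3, PRL-295 3, DMSO 1, DMSO 2 or DMSO 3 (0.0617 to 0.124). The STK3 call also ended with a block for replicate number (0.0741) and in limma (0.0827). After PRL-295 0 of 19 passed against DMSO in edgeR, DESeq2 or limma, with 2 higher and 1 lower at an unadjusted p under 0.05 in edgeR, beside 7.58% and 5.31% of all genes. MARK2, whose mean FPKM over the 9 libraries was the highest of the list, was at -0.22 (adjusted p = 0.63). Directly, 1 was lower than after CDDO-Me, beside 0.684% of all genes, FAT1 (162.7 CPM after PRL-295 and 314.1 CPM after CDDO-Me, -0.95, adjusted p = 0.00896, 0.0606 in the fit of the 6 libraries compared). LATS1, the partner of LATS2, had log2 fold changes of 0.41 after CDDO-Me (adjusted p = 0.36) and -0.13 after PRL-295 (0.914), each against DMSO. LATS2 held 65.5% ± 4.86 of their summed FPKM after CDDO-Me, 68.9% ± 9.07 after PRL-295 and 67.5% ± 4.09 with DMSO (SD, n = 3 each).

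CTGF and CYR61 are also targets of serum response factor (SRF) and its actin-regulated MRTF coactivators. After CDDO-Me, 0 of 17 tested genes of an SRF and MRTF list rose in edgeR, DESeq2 or limma without further correction. At an unadjusted p under 0.05 in edgeR, 2 were higher and 2 lower, beside 13.4% and 12.6% of all genes. In edgeR 2 fell, beside 4.57% of all genes tested that fell (CNN1, the 18th, was too low to test). They were MKL1, the coactivator MRTF-A itself (37.0 CPM after CDDO-Me and 61.7 CPM with DMSO, -0.74, adjusted p = 0.0109), and TAGLN2, an actin-binding protein (870.3 CPM after CDDO-Me and 1147 CPM with DMSO, -0.40, adjusted p = 0.0445). The MKL1 call ended without DMSO 1 (0.0579) or DMSO 2 (0.0528), and with the GC and length correction plus a block for replicate number (0.0596). The TAGLN2 call ended in 8 of the 9 fits that left out a library, all but that without PRL-295 2 (0.0564 to 0.149), and its value was -0.06 (0.779) with the GC and length correction. It also ended in the fit of the 6 libraries compared (0.0561), in limma (0.0564) and under both other filters (0.0513 and 0.0519). After PRL-295 0 of 17 passed against DMSO in edgeR or limma, and DESeq2 called 1, MKL1 (0.0472), beside 3.74% of all genes in DESeq2. In edgeR 0 were higher and 1 lower at an unadjusted p under 0.05, beside 7.58% and 5.31% of all genes. Directly, 0 passed in edgeR or limma and 2 in DESeq2, beside 6.37% of all genes in DESeq2. There 1 was higher and 3 lower at an unadjusted p under 0.05 in edgeR, beside 9.21% and 8.01% of all genes. ACTB, the most abundant per length over the 9 libraries, had a log2 fold change of 0.07 after CDDO-Me (adjusted p = 0.673), but passed as higher with the GC and length correction (0.40, adjusted p = 0.0228). It had a log2 fold change of -0.01 after PRL-295 against DMSO (adjusted p = 0.983) and -0.08 against CDDO-Me (0.698).

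Over the 9 libraries, the genes whose log2 CPM followed CTGF most closely among 13122 genes were ZNF776 (Pearson r = 0.973), RP1-27K12.2 (0.972) and SPTLC2 (0.969). For CYR61 they were TMEM237 (0.969), EEF1A1P6 (0.969), a pseudogene whose reads may come from its near-identical parent, and SERPINB2 (0.965). These values describe 9 libraries that fall into 3 treatment groups and differ in GC trend, and the search picked the highest of many.

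**Figure D4:**
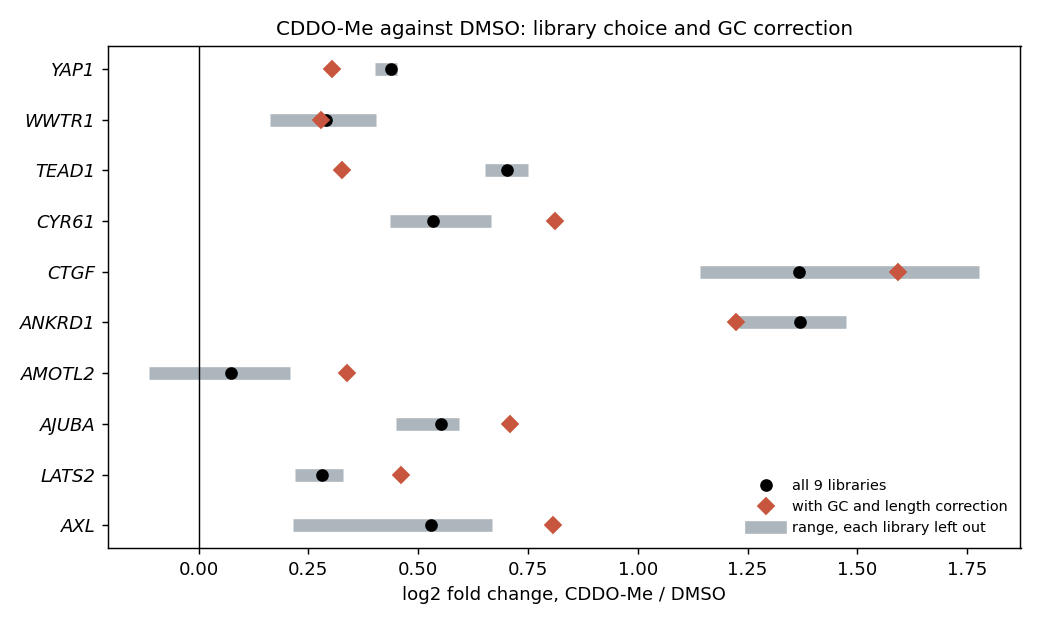
Log2 fold change of CDDO-Me over DMSO (x axis) for each of the 10 genes (rows): black points use all 9 libraries, red diamonds add the GC and length correction, and grey bars span the 9 fits that each left out 1 library. The YAP1 and TEAD1 diamonds lie at 0.31 and 0.33, left of their points, those of CYR61, CTGF, AMOTL2, AJUBA, LATS2 and AXL lie right of theirs, and the AMOTL2 bar crosses 0.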

How the data were processed

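RNA of 9 HaCaT libraries was sequenced in paired-end mode. Per the labels' protocols, the authors aligned reads with STAR 2.5 and counted them per gene with HTSeq 0.6.1; per the submitters' processing notes the build was hg38. The annotation release and strand setting are not given in the sources used here. The deposited values are raw read counts and FPKM, which the authors computed from count, gene length and library total. Levels are CPM from those counts after TMM scaling, or the deposited FPKM where genes are compared per length.

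Counts were tested with the quasi-likelihood test of edgeR 4.0.16 (R 4.3.3): filterByExpr by group, TMM, 1 fit of all 9 libraries, Benjamini-Hochberg adjustment over 16239 genes, threshold 0.05. Fold changes carry 95% intervals of the same fit. Floors cover counting error only. Alternatives were DESeq2 1.42.0, limma 3.58.1 on log2(FPKM + 1), RLE or library-size scaling, other filters (none, or at least 1 CPM in 3 libraries), only the 6 libraries compared, the replicate block, a GC and length correction that removed from each library its trend of log2 CPM on both (natural spline, 5 degrees of freedom, read from genes averaging at least 1 CPM, a limit chosen after seeing the data), and leaving out each library.

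The 10 members and the lists were chosen with earlier results of these data known. Of each list, up to 3 called genes with the largest log2 fold change are named per comparison, or else the gene with the highest mean FPKM over the 9 libraries, and for CTGF and CYR61 the 3 genes most like them in pattern. Promoters printed are the first 3 holding GGAATG in the order CTGF, CYR61, ANKRD1, AMOTL2, AXL, AJUBA, LATS2. Of the list of other YAP and TAZ targets, 1 gene is counted but not reported here by name.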

Additional observations from a re-analysis of the deposited data

How the results depend on the processing

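Over the 10 members, 184 of 190 alternative fits for PRL-295 against DMSO, 159 of 190 for CDDO-Me against DMSO and 169 of 190 for PRL-295 against CDDO-Me kept the direction and the side of the threshold. The fits that turned a sign were of values short of the threshold. For AMOTL2 after CDDO-Me, leaving out 1 library gave -0.112 to 0.209; for TEAD1 after PRL-295, -0.223 to 0.252; for WWTR1 in the direct comparison, -0.114 to 0.084. After PRL-295 the GC and length correction gave -0.105 for ANKRD1 and 0.014 for AMOTL2, and with the replicate block added -0.110 and 0.013.

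The number of members called after CDDO-Me was 5, and 6 with DESeq2, 7 with no filter and 1 to 6 with 1 library left out; after PRL-295 it was 0 in every alternative run. In the direct comparison it was 2, and 1 in the fit of the 6 libraries compared, 5 with DESeq2, 4 with no filter and 0 to 2 with 1 library left out. All genes called after CDDO-Me numbered 1497, and 970 with the GC and length correction, 2616 with DESeq2, 2509 with no filter and 382 to 2755 with 1 library left out. For PRL-295 against DMSO the number was 111, and 697 in the fit of 6 libraries, 607 with DESeq2, 825 with no filter and 29 to 544 with 1 left out. For the direct comparison it was 258, and 409 with the GC and length correction, 46 in the fit of 6 libraries, 1035 with DESeq2, 1250 with no filter and 73 to 279 with 1 left out. Of the 1497 genes called after CDDO-Me, 755 were higher and 742 lower; the split was 617 and 353 with the GC and length correction, 1676 and 833 with no filter, and 560 and 891 in limma. For the direct comparison it was 147 and 111, and 177 and 232 with the GC and length correction, and 561 and 689 with no filter. The cause of these changes was not tested.

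Deviations of same-numbered libraries from their group means had correlations of 0.043, -0.0522 and 0.0973 for CDDO-Me and DMSO, 0.101, 0.0426 and -0.068 for PRL-295 and DMSO, and -0.103, -0.198 and -0.0113 for PRL-295 and CDDO-Me. The libraries also differ in GC trend, so these values cannot decide whether the numbers pair them. The labels name no pairing. With the replicate block, members called were 3 after CDDO-Me, 0 after PRL-295 and 1 in the direct comparison, and all genes called were 864, 60 and 156; with the GC and length correction added the first was 831. In that last fit AXL was also called lower in the direct comparison (adjusted p = 0.0376). The least counted member, CTGF, had 83 to 439 counts a library, above the floor of 3 counts.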
